A study of Mus musculus with 9 samples.

Results

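The second day of eribulin treatment was examined by comparing ZEB1 occupancy after 48 h of the drug with occupancy after 24 h, in 4 of the 9 libraries of the study. The cells were PB3, a mouse breast cancer line labelled negative for the oestrogen, progesterone and Her2 receptors. Both groups had received 300 nM eribulin (spelled "Erubilin" in some labels), 1 for 24 h and the other for 48 h, and each held 2 libraries. The labels name the treated cells PB3_ERI and the untreated cells PB3-Parental, and do not say whether replicates were separate cultures. The other libraries were 2 untreated controls, 2 after 72 h in the same dose, and 1 with IgG in place of the ZEB1 antibody. All 23623 consensus peaks of the count table were taken, of which 21192 held enough counts to be tested and 2431 did not.

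The zinc-finger protein ZEB1 binds E-box sequences and represses epithelial genes such as that of E-cadherin, and it is best known as a driver of the epithelial-mesenchymal transition. Eribulin binds the growing ends of microtubules and stops their elongation, which arrests cells in mitosis. CUT&RUN recovers the DNA that a nuclease, tethered to the antibody, cuts beside its target, so a peak is a stretch of DNA that is often released. The series title speaks of mesenchymal-epithelial transition brought about by therapy, and the comparison of 48 h with 24 h asks where ZEB1 signal went on changing once treatment had begun.

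ZEB1 signal was higher at 48 h than at 24 h at 47 peaks and lower at 113. The rises often lay at gene boundaries, such as those of Sav1, Setd2, Eif3a and Spryd3, and the falls lay almost all away from them, inside genes such as Ctnnd1 and Pacsin2 or between genes, as near Krt27 and Mreg. These 160 calls, made with edgeR's quasi-likelihood test at a Benjamini-Hochberg adjusted p below 0.05, were 0.755% of all tested peaks (0.222% higher and 0.533% lower). The median log2 fold change was 1.12 among the rises, or 2.17-fold, and -0.93 among the falls, or 1.91-fold lower, against 0.00 over all tested peaks. The smallest change called was 0.53 upward and -0.51 downward, both at peaks with many counts. DESeq2 called 0 peaks, with 419 (1.98%) at an unadjusted p below 0.05 where edgeR had 3082 (14.5%). All 160 peaks had the same sign in DESeq2, and 159 of them had an unadjusted p below 0.05 there.

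The libraries held between 326944 and 765015 counts in peaks, and 593248 to 765015 in the 4 compared here. The 24 h libraries differed from each other by less than the sampling noise, with a chi-square per degree of freedom of 0.953, where 1 is the value of 2 draws from 1 pool, and the 48 h libraries gave 1.06. A fit in which the 24 h pair was counted as 1 sample, together with the control and 72 h pairs, called 98 of the 160 peaks and no others, 23 higher and 75 lower (0.462%). Its spread came from the 48 h pair alone, so it does not measure the spread between cultures. The 48 h libraries did not stand equally far from 24 h. Replicate 1 differed from the 24 h libraries with a chi-square per degree of freedom of 1.54 and 1.49 and replicate 2 with 1.34 and 1.3, while against the 72 h libraries replicate 1 gave 1.12 and 1.15 and replicate 2 gave 1.26 and 1.32. By the sign of the fitted change, replicate 2 lay on the 24 h side of replicate 1 at 106 of the 160 calls (66.2%). The share over all tested peaks was 52.6%. Without 48 h replicate 1 the test called 15 peaks, 6 of them among the 160. Without 24 h replicate 1 it called 9, of which 7 were among the 160, and without 24 h replicate 2 it called 6, of which 5 were. Without 48 h replicate 2 it called 196, of which 95 were. Peaks near Krt27 and Mreg were the 2 that were called in all 4 of these fits.

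**Figure D1:**
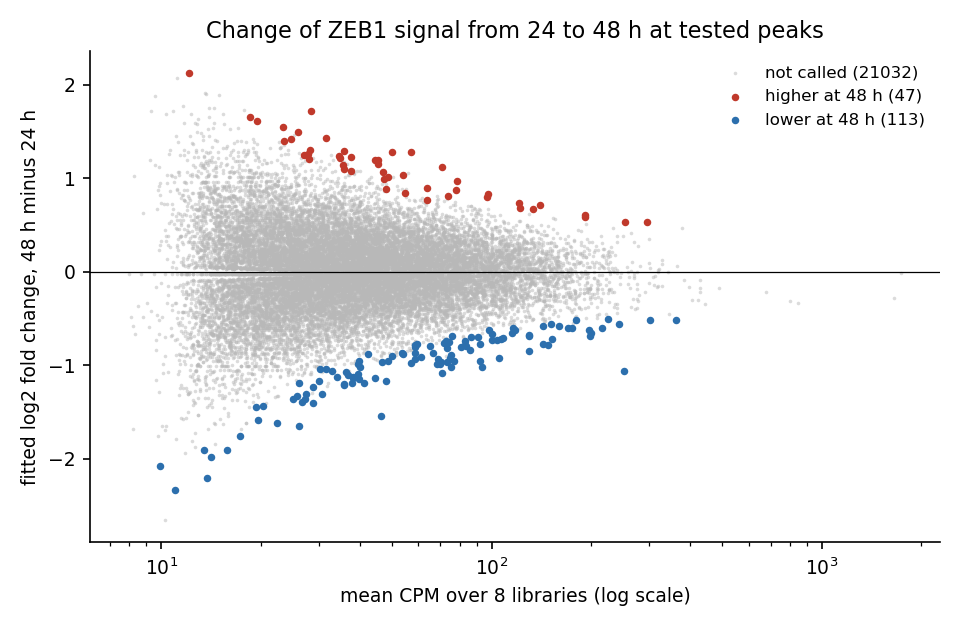
Each point is 1 of the 21192 tested peaks, with its mean signal over the 8 libraries as CPM (log axis) and its fitted log2 fold change from 24 to 48 h. The 113 falls (blue) and the 47 rises (red) lie at the edges of a cloud centred on 0, and the size of change needed for a call shrinks from left to right as counts grow.

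A few called peaks hold a whole promoter window, and some of these windows are shown as examples of the sequence under them. RefSeq windows of 300 bases, 250 before and 50 after the annotated start on GRCm38.p6, were held by 7 of the 47 rising peaks and 3 of the 113 falling ones, in a table that does not cover every gene. Of the rises those of Spryd3 and of Moap1, which promotes cell death and whose start lies in the Tmem251 peak, are shown, followed by all 3 held by falls, which were picked after their values were seen. They lie at chr15:102136166-102136465 (minus strand), chr12:102743612-102743911 (minus), chr7:19344821-19345120 (plus, Ercc1), chr7:29505411-29505710 (minus, an inner start of Sipa1l3, in a peak placed inside the gene) and chr3:96450389-96450688 (plus, the long noncoding RNA gene Gm26232, in a peak inside BC107364). The peak that holds the Gm26232 window also lies beside LOC115489800, which encodes a small nuclear RNA, and is described with such peaks below. Capitals mark CAGGTG or CAGGTA, the E-box forms searched for ZEB1, and TGANTCA, the AP-1 site, on either strand.
Spryd3: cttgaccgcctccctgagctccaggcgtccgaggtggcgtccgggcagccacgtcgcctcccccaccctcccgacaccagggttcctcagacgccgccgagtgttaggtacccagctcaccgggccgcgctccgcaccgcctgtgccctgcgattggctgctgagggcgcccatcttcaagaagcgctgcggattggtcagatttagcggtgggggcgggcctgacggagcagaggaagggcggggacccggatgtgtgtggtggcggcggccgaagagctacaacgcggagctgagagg
Moap1: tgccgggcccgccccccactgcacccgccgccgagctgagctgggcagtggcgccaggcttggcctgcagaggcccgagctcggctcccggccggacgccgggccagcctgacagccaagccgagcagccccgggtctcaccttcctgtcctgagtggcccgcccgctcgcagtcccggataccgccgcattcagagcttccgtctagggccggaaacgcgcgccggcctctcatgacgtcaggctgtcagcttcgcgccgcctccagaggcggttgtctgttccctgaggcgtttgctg
Ercc1: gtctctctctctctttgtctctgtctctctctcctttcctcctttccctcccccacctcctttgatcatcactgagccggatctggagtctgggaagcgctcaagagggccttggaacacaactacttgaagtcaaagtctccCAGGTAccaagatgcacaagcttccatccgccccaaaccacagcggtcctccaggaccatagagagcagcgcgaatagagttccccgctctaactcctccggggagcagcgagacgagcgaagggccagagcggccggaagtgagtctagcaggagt
Sipa1l3: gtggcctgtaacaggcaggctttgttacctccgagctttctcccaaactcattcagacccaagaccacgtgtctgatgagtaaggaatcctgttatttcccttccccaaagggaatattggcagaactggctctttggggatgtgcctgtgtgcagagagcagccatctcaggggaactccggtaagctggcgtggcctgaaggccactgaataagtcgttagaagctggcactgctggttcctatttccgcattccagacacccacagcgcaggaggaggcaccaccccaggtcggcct
Gm26232: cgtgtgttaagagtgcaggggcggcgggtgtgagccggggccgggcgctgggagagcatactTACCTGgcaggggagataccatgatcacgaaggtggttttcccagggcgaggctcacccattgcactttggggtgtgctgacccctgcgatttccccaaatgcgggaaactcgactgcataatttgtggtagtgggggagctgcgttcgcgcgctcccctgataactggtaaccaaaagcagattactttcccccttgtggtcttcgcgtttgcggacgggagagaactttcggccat
The windows of the rises are made of 69.3% (Spryd3) and 72% (Moap1) G and C and hold no match. Those of the falls hold 57% (Ercc1), 55% (Sipa1l3) and 58.3% (Gm26232) G and C. CAGGTA or its complement occurs once in Ercc1 and once in Gm26232. Whether the match in the Gm26232 window is part of the small nuclear RNA sequence was not tested. Over the 8 windows held by rising peaks the median G and C content was 68.8% and no motif matched. Among 2629 windows held by tested peaks the median was 64.3%, and 15.7% held CAGGTG, 7.8% CAGGTA and 5.71% TGANTCA. Over all 32851 windows of the table the shares were 20.2, 12 and 7.81%. With 8 and 3 windows these counts are descriptions, and the sequence of the peaks themselves was not analysed here.

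Among the rises, the peak at the boundary of Sav1 changed most of those named. Sav1 encodes the scaffold that brings the Hippo kinases together. The peak, at chromosome 12 69986967 to 69987415, held 11.9 and 12.3 CPM at 24 h and 39.7 and 41.1 CPM at 48 h, where CPM is the count scaled to a common library total over the tested peaks. Before scaling these were low counts, of 7 and 9 at 24 h and 30 and 24 at 48 h. Both 48 h libraries lay above both 24 h libraries, as they did at all 47 rises, a separation found upward at 22.7% of tested peaks and in either direction at 44.9%. The log2 fold change was 1.71 (SE 0.362, adjusted p = 0.00801 in edgeR). The controls had held 19.3 and 32.1 CPM and the 72 h libraries 32.4 and 37.6, so the 24 h pair was the lowest of all 4. The smallest p of a rise belonged to a peak that lies inside Vps13d, 2.01 kb from a boundary of Dhrs3, the gene of a retinaldehyde reductase, at chromosome 4 144929717 to 144930721. It held 25.6 and 42.3 CPM at 24 h against 91.3 and 77 at 48 h (1.28 on the log2 scale, SE 0.238, adjusted p = 0.00189 in edgeR).

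The boundary peaks of 6 more named genes rose in addition to Spryd3. At Setd2, which encodes the methyltransferase for lysine 36 of histone H3, signal was 17.1 and 27.3 CPM at 24 h and 55.6 and 47.9 at 48 h (log2 fold change 1.19, SE 0.294, adjusted p = 0.0241 in edgeR). The peak at Eif3a, for a subunit of a translation initiation factor, rose by 1.23 on the log2 scale (SE 0.302), from 20.5 and 21.8 CPM to 47.6 and 53. At Oga, whose enzyme removes N-acetylglucosamine from proteins, it rose by 1.06 (SE 0.272). The boundary peak of Tmem251, a gene needed for sorting lysosomal enzymes, rose by 1.07 (SE 0.279), that of the sperm ion channel gene Catsperd by 1.01 (SE 0.26) and that of the mitochondrial protein gene Chchd7 by 0.97 (SE 0.225). The boundary peak of Spryd3, at chromosome 15 102136039 to 102136556, had 68.2 and 75 CPM at 24 h and 111.1 and 150.5 at 48 h (0.83, SE 0.183, adjusted p = 0.0103 in edgeR). Here the 2 controls, at 74.3 and 65.7 CPM, were level with 24 h, and the 72 h libraries, at 110.9 and 125.5, with 48 h.

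The other rises lay inside genes (14) or outside them (12). Inside Myo5a, for a myosin that carries vesicles along actin, signal went from 17.1 and 16.4 CPM to 42.3 and 39.3 (log2 fold change 1.29, SE 0.334, adjusted p = 0.0347 in edgeR). Peaks also rose inside Ctdp1, the gene of a phosphatase of RNA polymerase II (1.12, SE 0.232), inside Msln, which encodes the surface protein mesothelin (1.10, SE 0.287), and inside both Igf2bp3, an RNA-binding protein gene, and the overlapping Malsu1 (0.99, SE 0.258). The peak 12.9 kb from Ier5, an immediate early gene, rose by 1.15 (SE 0.283), and a peak inside Sox5, 111.6 kb from any boundary, by 1.28 (SE 0.276). With the 24 h pair counted as 1 sample, 7 of the named rises did not pass, at adjusted p = 0.0502 (Oga), 0.0571 (Tmem251, Catsperd, Msln and Myo5a), 0.0594 (Igf2bp3) and 0.0722 (Smad7, described with its pathway).

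**Figure D2:**
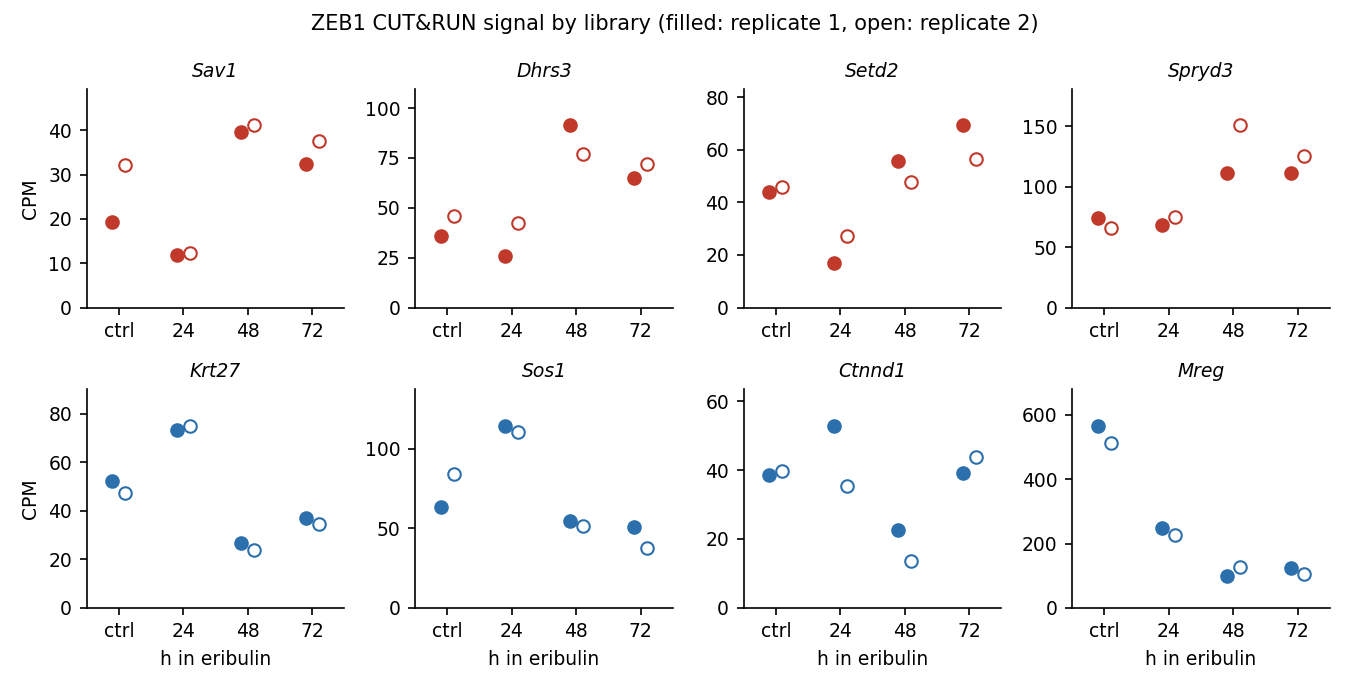
CPM of 8 named peaks in each library, by group (untreated control, then 24, 48 and 72 h in 300 nM eribulin), with replicate 1 filled and replicate 2 open, and an axis from 0 in each panel. In the upper row both 48 h libraries lie above both 24 h libraries and in the lower row below them. At Krt27 and Sos1 the 24 h pair is the highest of the 4 groups, and at Mreg the controls are.

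The largest fall among peaks with at least the median CPM was near Krt27, the gene of a hair follicle keratin. The peak, at chromosome 11 99341904 to 99342328 and 3.45 kb from the gene, held 73.3 and 75 CPM at 24 h and 26.5 and 24 at 48 h. The groups did not overlap, as at all 113 falls and, downward, at 22.2% of tested peaks. The log2 fold change was -1.54 (SE 0.26, adjusted p = 2.88e-04 in edgeR). The controls, at 52.3 and 47.4 CPM, lay between the 2 times. The peak inside Arhgef33, 37.1 kb from a boundary of the Ras activator gene Sos1 (chromosome 17 80356130 to 80357159), fell from 114.3 and 110.5 CPM to 54.2 and 51.3 (-1.08, SE 0.201, adjusted p = 0.00189 in edgeR).

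Further falls lay inside Ctnnd1, Pacsin2 and Ptk2 and near Itgam, Itga3 and Ndst1. Ctnnd1 encodes p120-catenin, which holds cadherins at the cell surface. Signal at the peak inside it went from 52.9 and 35.5 CPM to 22.5 and 13.7 (log2 fold change -1.20, SE 0.323, adjusted p = 0.0439 in edgeR), and adjusted p was 0.0571 with the 24 h pair counted as 1 sample. At 72 h this peak held 39.3 and 43.9 CPM, level with the controls at 38.5 and 39.7. Inside Pacsin2, which bends membranes, signal fell by 1.19 on the log2 scale (SE 0.276), and inside Ptk2, the focal adhesion kinase gene, at 13.6 kb from Mir151, by 1.15 (SE 0.296). The peak at the boundary of Itgam, an integrin gene of myeloid cells, fell by 1.14 (SE 0.282), and that near Itga3, for a laminin-binding integrin, by 0.61 (SE 0.144). Near Ndst1, whose enzyme sulphates heparan sulphate, it fell by 1.07 (SE 0.268).

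Falls also lay in or near Bicd2, Zbtb40, Thoc6, Uaca, Fbxl5 and Bnc1. The peak 10 kb from Bicd2, an adaptor of the motor dynein, went from 52.9 and 62.8 CPM to 19.8 and 32.5 (log2 fold change -1.19, SE 0.28, adjusted p = 0.0175 in edgeR). That inside the zinc-finger gene Zbtb40 fell by 1.17 (SE 0.267), that inside Bicdl2 near the mRNA export gene Thoc6 by 1.13 (SE 0.291), and that near Uaca by 1.09 (SE 0.27). At 6.22 kb from Fbxl5, a ubiquitin ligase gene that senses iron, signal was 81.9 and 70.9 CPM at 24 h and 29.1 and 41.1 at 48 h (-1.14, SE 0.243, adjusted p = 0.00873 in edgeR). Here the controls, at 38.5 and 29 CPM, were level with 48 h. Near Bnc1, a transcription factor gene of stratified epithelium, it went from 172.2 and 165.1 CPM to 88.6 and 99.2 (-0.85, SE 0.165, adjusted p = 0.00318 in edgeR). A peak with no gene within 50 kb, at chromosome 3 56933658 to 56934300, had 133 and 124.1 CPM at 24 h, 63.5 and 68.4 at 48 h, and 52.3 and 52 in the controls (-0.96, SE 0.184, adjusted p = 0.00281 in edgeR). Of the 113 falls 13 had another fall within 50 kb, and 0 of the 47 rises had another rise that close. The sets differ in size and the share among all tested peaks was not counted, so these counts are descriptions. Inside Dapk2, for a kinase of the cell death pathway, 3 peaks fell, by 1.43, by 0.89 and by 0.51 on the log2 scale, and they were named after their values were seen.

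The position of the called peaks differed between rises and falls. A peak was placed at a boundary when its centre lay no more than 1 kb from either end of a protein-coding or microRNA gene, and the others were split by whether they fell inside protein-coding genes. Boundary peaks made up 28.6% of those tested. They were 21 of the 47 rises (44.7%) and 4 of the 113 falls (3.54%), namely Synpo, Itgam, Sdcbp2 and Ercc1, named here after their values were seen. Of 6054 boundary peaks 0.347% rose and 0.0661% fell, of 7595 inside genes 0.184% rose and 0.645% fell, and of 7543 outside genes 0.159% rose and 0.795% fell. Peaks that were not called leaned the same way. Those fitted higher were at a boundary in 37.3% of cases and those fitted lower in 19.9%. At an unadjusted p below 0.05, 654 boundary peaks were higher and 181 lower, against 402 and 715 inside genes and 362 and 768 outside. With DESeq2 at the same unadjusted level, 81 of 171 higher peaks (47.4%) and 18 of 248 lower ones (7.26%) were at a boundary. With the 24 h pair counted as 1 sample, the boundary share of the called rises lay nearer to that of all tested peaks. The boundary share of the falls stayed far below it. The median log2 fold change of boundary peaks in that fit was 0.132, against 0.146 in the main fit.

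The lean was a small shift of most boundary peaks. Their median log2 fold change was 0.146, with 65.8% above 0, against -0.053 inside and -0.061 outside genes. It was not graded beyond the first kilobases. The median was -0.02 at 1 to 5 kb from a boundary, -0.06 at 5 to 20 kb, -0.07 at 20 to 50 kb and -0.05 beyond. Without each library in turn the median of the boundary peaks was 0.086 (48 h replicate 1 left out), 0.169 (48 h replicate 2), 0.128 (24 h replicate 1) and 0.157 (24 h replicate 2), and it lay between 0.129 and 0.159 under the other settings tried. In the comparison of 72 h with control, which shares no library with that of 48 h with 24 h, the medians in the same order of distance were 0.37, 0.02, -0.13, -0.20 and -0.23, and 59.1% of its rises and 4.61% of its falls were at a boundary.

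**Figure D3:**
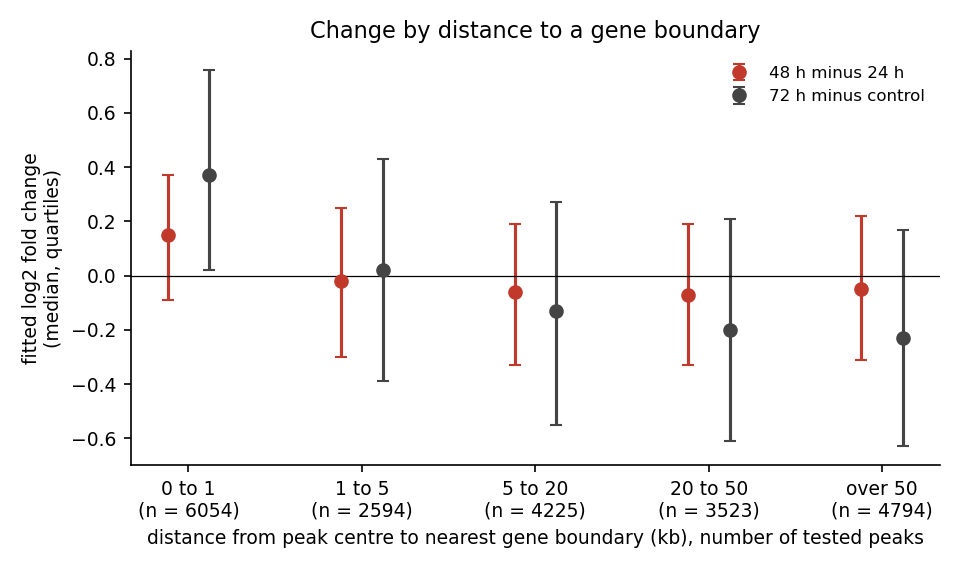
Median fitted log2 fold change (points) and quartiles (bars) of tested peaks by the distance of their centre from the nearest gene boundary, for 48 h minus 24 h (red) and 72 h minus control (dark grey). Only the peaks within 1 kb have a median clearly above 0 in either comparison, at 0.15 and 0.37, and the quartiles of all distances overlap.

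The same lean was present in whole libraries. Boundary peaks received 27.8 and 28.5% of the peak counts at 24 h and 31.6 and 30% at 48 h. The 95% Wilson intervals, which cover counting error only, were 27.7 to 27.9 and 28.4 to 28.7 at 24 h and 31.5 to 31.7 and 29.9 to 30.1 at 48 h, so both 48 h libraries lay above both 24 h libraries. The difference of the means was 2.62 percentage points. An exact permutation test of 2 against 2 libraries gave p = 0.333 (two-sided), the smallest that this design allows. The controls held 27.8 and 27.6% and the 72 h libraries 33.9 and 34.8%, and peaks outside genes moved the other way, from 37 and 36.3% at 24 h to 34.6 and 35.6% at 48 h. The IgG library has no column in the count table, so its share was not analysed here.

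**Figure D4:**
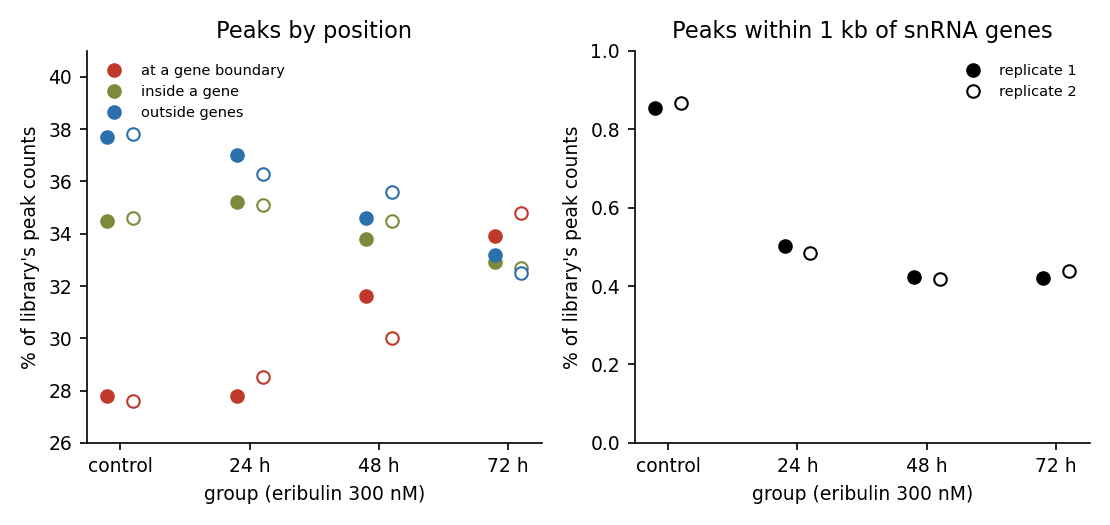
Share of each library's peak counts that fell in peaks at gene boundaries (red), inside genes (green) and outside genes (blue), at left on an axis that starts at 26%, and in peaks within 1 kb of small nuclear RNA genes, at right from 0. The boundary share is 27.8 and 28.5% at 24 h and 31.6 and 30% at 48 h, and the small nuclear RNA share drops most between control and 24 h.

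The levels of the called peaks in the other groups show at which time they stood apart. The 24 h mean was the highest of the 4 group means at 96 of the 113 falls (85%) and the lowest at 32 of the 47 rises (68.1%). Among peaks that were not called, it was the highest at 45.3% of those fitted lower and the lowest at 46.1% of those fitted higher. The median CPM of the falls was 61.9 in the controls, 90 at 24 h, 49.6 at 48 h and 48.5 at 72 h, and that of the rises 33.2, 26.4, 60.6 and 56.8. At 48 h, 89 of the 113 falls were below the control mean and 41 of the 47 rises above it. The 72 h mean was nearer to 48 h than to 24 h at 144 of the 160 peaks (90%) against 62.6% of all tested peaks, and all 113 falls were still below, and all 47 rises above, their 24 h mean at 72 h. The control mean was nearer to 48 h at 82 of the 160 (51.2%). These counts use the 24 and 48 h libraries that also chose the peaks, and are descriptions.

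Some of the called peaks also differed between 72 h and control, where 2666 peaks (12.6%) were called, 6.84% higher and 5.74% lower (0.543% with DESeq2, 10.4% with summed pairs). Of the 47 rises 13 (27.7%) were higher there and 0 lower. Of the 113 falls 26 (23%) were lower there and 1 higher. Among the rises these were Spryd3, Catsperd, Tmem251, Igf2bp3 and Myo5a. Chosen after their values were seen, the boundary peaks of Terf1, for a protein that binds telomeres, and of Cmtm7 were also among them. At Terf1 the 24 h libraries held 13.6 and 16.4 CPM and the 48 h libraries 39.7 and 42.8, beside 11 and 12.2 in control and 27.7 and 34.5 after 72 h. Bicd2, Thoc6 and Bnc1 were among the falls. The 1 exception, near Otud7b, had 448.5 and 398.4 CPM at 24 h and 258 and 338.7 at 48 h, beside 198 and 192.6 in control and 288.9 and 288.6 after 72 h, so it fell from 24 h without returning to the control level.

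**Figure D5:**
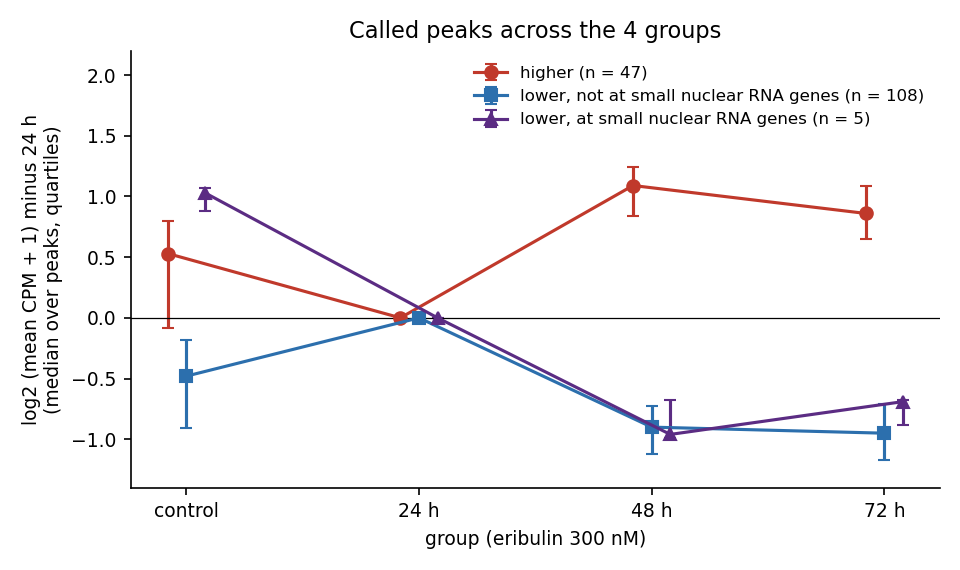
Median over peaks of the log2 group mean (CPM + 1), minus its 24 h value, with quartiles as bars, for the 47 rises, the 108 falls away from small nuclear RNA genes and the 5 falls beside them. The 108 falls stand at -0.48 in control and -0.90 at 48 h, so their 24 h level is the highest, while the 5 stand at 1.03 in control and descend through both steps.

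The 5 falls within 1 kb of small nuclear RNA genes followed another course. These genes encode the RNAs of the spliceosome and are transcribed from short, strong promoters in many copies. The peak 14.7 kb from Mreg, at chromosome 1 72225923 to 72228148, held 247.3 and 225.1 CPM at 24 h and 99.2 and 128.3 at 48 h, with 566.5 and 513.6 in untreated cells and 122.5 and 106.7 after 72 h. It fell by 1.07 on the log2 scale from 24 to 48 h (SE 0.152, adjusted p = 2.37e-06 in edgeR), the smallest p of the comparison, and had the smallest adjusted p in DESeq2 as well (0.0617). The controls were above 24 h, and 24 h above the later times, with no overlap between the first 3 groups. The peak beside the mitotic kinesin gene Kif2c fell from 95.5 and 84.6 CPM to 38.4 and 51.3 (-1.02, SE 0.222, adjusted p = 0.00994 in edgeR). That near Pecr fell from 133 and 84.6 to 47.6 and 63.3 (-0.96, SE 0.209, adjusted p = 0.00995 in edgeR). Its controls, at 126.5 and 148.3 CPM, overlapped the 24 h libraries. The pair beside BC107364 fell by 0.69 (SE 0.152) and by 0.62 (SE 0.157), the latter with an adjusted p of 0.0591 with the 24 h pair as 1 sample. The control mean was the highest of the 4 at all 5 of these peaks, against 12 of the other 108 falls, and all 5 were also lower at 72 h than in control. They are not 5 separate places. The Mreg and Pecr peaks are neighbours on chromosome 1, starting at 72225923 and 72236563. The BC107364 peaks are neighbours on chromosome 3, starting at 96458702 and 96450178, and both also have transfer RNA genes within 1 kb.

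Beyond these 5, no small nuclear RNA peak passed in edgeR. Of 61 tested peaks within 1 kb of such a gene 5 fell and 0 rose by adjusted p, where 0.533% of all tested peaks fell and 0.222% rose. At an unadjusted p below 0.05, 19 of the 61 were lower and 3 higher, against 7.85% and 6.69% of all tested peaks. In the comparison of 72 h with control 34 of the 61 were lower and 0 higher, against 5.74% and 6.84%. Together with untested ones, these peaks took 0.502 and 0.483% of the counts at 24 h, 0.424 and 0.418% at 48 h, 0.853 and 0.866% in the controls and 0.42 and 0.437% at 72 h. The genes are repeated in near-identical copies, so the counts of single peaks beside them are uncertain.

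Peaks near genes of the epithelial-mesenchymal programme and of the pathways around it were called about as often as any others. The 17 gene lists had 1283 tested peaks near 567 genes, of which 3 rose and 7 fell. That is 0.779%, close to the 0.755% of all tested peaks. In the epithelial adhesion and keratin list 1 of 43 peaks fell (Ctnnd1) and 0 rose, with a median of -0.13, and 8 were lower and 1 higher at an unadjusted p below 0.05, a level at which 1664 of all tested peaks (7.85%) were lower and 1418 (6.69%) higher. In the mesenchymal and matrix list 1 of 124 fell, inside Col18a1, the gene of a basement membrane collagen (-0.87, SE 0.204, 107.4 and 95.5 CPM at 24 h against 50.3 and 61.6 at 48 h). The list's median was -0.07, with 18 lower and 2 higher at the unadjusted level. No peak was called in edgeR among 36 near tight junction genes, 20 near polarity genes, 57 near transcription factors of the transition or 79 near corepressor and chromatin genes. In the same order 6, 2, 7 and 14 had an unadjusted p below 0.05 in either direction, as did 14.5% of all tested peaks. Of these 4, 2, 7 and 5 were lower and 2, 0, 0 and 9 higher. DESeq2 called 0 of any list.

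Calls near signalling genes were few in number. Their shares were 2.07% in the Hippo list, 1.16% in the TGF-beta list and 1.61% in the Wnt list, against 0.755% of all tested peaks. With so few calls these shares are descriptions. In the list of Hippo, YAP and AP-1 genes 2 of 145 rose, Sav1 and Ier5, and 1 fell, inside Tead1, which encodes the DNA-binding partner of YAP (-0.68, SE 0.186). Tead1 held 122.8 and 109.1 CPM at 24 h, 64.8 and 80.4 at 48 h, and 68.8 and 71.8 in the controls, and its adjusted p of 0.0464 became 0.0693 with the 24 h pair as 1 sample. In the TGF-beta list 1 of 86 rose, near the inhibitor gene Smad7 (0.89, SE 0.236). At an unadjusted p below 0.05 the Hippo list had 11 higher and 11 lower, the TGF-beta list 5 and 7, and the Wnt list 6 and 2. Of all tested peaks 6.69% were higher and 7.85% lower at that level. In the Wnt list 1 of 62 fell, inside the co-receptor gene Lrp5, from 52.9 and 40.9 CPM to 19.8 and 20.5 (-1.19, SE 0.31), where the controls held 16.5 and 13.8. Among 90 peaks near microtubule and mitosis genes, the direct context of eribulin, only the Kif2c peak beside a small nuclear RNA gene was called. Of 212 near actomyosin and adhesion genes 1 fell (Itga3). The called shares of these lists were 1.11% and 0.472%. At the unadjusted level 7 of the 90 were higher and 5 lower, and of the 212 these were 9 and 24.

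The remaining lists reported here had no call in edgeR. They were the 42 peaks near interferon genes, with a median of -0.16, and 63 near cytosolic and 58 near mitochondrial ribosomal protein genes (0.06 and 0.01). The last were 68 near histone genes (-0.08) and 12 near markers of other cell types (-0.04). In the same order 8, 10, 11, 8 and 1 had an unadjusted p below 0.05 in edgeR, as did 14.5% of all tested peaks. The defining genes of the transition did not pass either. The peak with the most counts of each gave -0.60 (adjusted p = 0.0936 in edgeR) at the boundary of Snai1, from 104 and 102.3 CPM to 68.8 and 66.7, and -0.54 (0.28) at that of Snai2, from 59.7 and 60 to 39.7 and 42.8. Both genes encode repressors of E-cadherin. The values were -0.39 (adjusted p = 0.539) for the epithelial adhesion gene Epcam, -0.34 (0.306) for Krt8 and -0.23 (0.407) for Krt18, the simple epithelial keratin genes, and -0.24 (0.549) for Cdh1, the gene of E-cadherin. For Zeb1 itself it was -0.13 (0.825), for Zeb2 -0.02 (0.979) and for the mesenchymal filament gene Vim 0.42 (0.378). Their standard errors ran from 0.128 (Krt18) to 0.279 (Epcam). Besides those of Snai1 and Snai2, the peaks of Krt8 and Vim were at a boundary. The others lay away from the gene's boundary, at 26.1 kb (Epcam), 13.7 kb (Krt18), 16.2 kb (Cdh1), 34.9 kb (Zeb1) and 14 kb (Zeb2). At Vim the 48 h libraries held 86 and 56.5 CPM, the second close to the 24 h pair at 58 and 51.8.

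The authors' own peak lists, 1 per group, held 15163 peaks at 24 h and 14479 at 48 h. Of the 24 h peaks 75.7% (95% Wilson interval 75 to 76.4) shared a base with a 48 h peak, and of the 48 h peaks 79.4% (78.7 to 80) with a 24 h peak. Peaks in 1 list alone were weaker by the authors' fold over IgG, with a median of 5.63 for the 3681 found at 24 h only against 8.03 for shared ones, and of 6.54 for the 2983 at 48 h only against 9.6. Of the 47 rises 24 were in the 48 h list and not the 24 h list, 22 in both, 1 in neither and 0 in the 24 h list alone. Of the 113 falls 41 were in the 24 h list and not the 48 h list, 68 in both, 4 in neither and 0 in the 48 h list alone. The lists and the counts come from the same libraries. In all, 3147 tested peaks (14.8%) were in the 24 h list without the 48 h list and 2502 (11.8%) the reverse. The first kind made up 36.3% of the falls and the second 51.1% of the rises. Most peaks of either kind were still not called by their counts.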

How the data were processed

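ZEB1 CUT&RUN was compared between 48 and 24 h of eribulin, 2 libraries each, from the deposited table of raw counts per consensus peak, made by the authors with no scaling. Per the submitters' processing notes, the tools were Bowtie2 2.2.6, MACS2 2.1.1, featureCounts, cutadapt 2.4, bedtools 2.30.0, deepTools, Picard and bcl2fastq 2.20.0.422, with GRCm38 and with no settings named. In the deposited peak lists a peak has a fold (ratio) over IgG and the −log10 of its q-value. Each list is named for replicate 1. The part of replicate 2 in it is not stated.

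The test was edgeR 4.0.16 (R 4.3.3): filterByExpr, TMM, and a robust quasi-likelihood fit over the 8 ZEB1 libraries with 1 mean per group and 4 residual degrees of freedom. Calls had a Benjamini-Hochberg adjusted p below 0.05 over 21192 peaks, and DESeq2 1.42.0 was an alternative. The code was checked on simulated data. The labels name no separate cultures, so p-values reflect only the spread among these libraries, which may be technical, and no added control DNA was used for scaling, so changes are relative to other peaks. Library totals, 326944 to 765015, limit the precision.

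A gene is that with the nearest start or end within 50 kb (RefSeq, GRCm38.p6), a neighbour and not a shown target. Named peaks were the 12 largest rises and falls with at least the median CPM of 35.5 and no overlap between groups, up to 4 called peaks per list and direction, the 5 smallest p in each direction, called peaks within 1 kb of small nuclear RNA genes, and 9 fixed genes. The result of 1 list is not reported here. Members, 17 lists (904 of 910 members matched) and rules were chosen with earlier results of these data known. Alternatives changed scaling, filter, tool, libraries, depth, the replicate block and the peaks included.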

Additional observations from a re-analysis of the deposited data

How the results depend on the processing

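Under 8 alternatives for scaling, filter and peaks or groups included the count of 160 moved by less than 1.5 times, between 150 and 232. The rises and falls moved unequally, from 47 and 113 to 88 and 144 with only the 2 groups in the fit and to 95 and 137 with only listed peaks, so that the share of rises went from 29.4 to 40.9%. It was 0 with DESeq2, 98 with replicate pairs summed and 15 with libraries thinned to 326944 counts. Leaving out 1 library gave 6 to 196 calls, where the lone library of a time is assumed to vary like the other groups. For 72 h against control the count of 2666 became 115 with DESeq2, 1506 with thinned libraries and 684 to 1803 without 1 library. With the replicate number as a block, 163 peaks were called at 48 h against 24 h, 148 of them among the 160, and 2566 at 72 h against control. Replicate differences of the 24 and 48 h pairs correlated at -0.0214, so same-numbered libraries did not deviate together.

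The 10 calls near listed genes became 0 with DESeq2. List overlap was 81.3 and 70.2% for the 24 and 48 h lists at a −log10 q of at least 5, and 74.2 and 77.9% when 50% of the shorter peak had to be shared. No named call changed direction under any alternative run, while among genes that did not pass the values of Snai2 (-0.59 to 0.03), Zeb1 (-0.24 to 0.14) and Zeb2 (-0.46 to 0.24) crossed 0. Of 40 named calls, 40 did not pass with DESeq2, 35 with thinned libraries and 10 with summed pairs, and the cause was not tested. The smallest change called at these depths was 1.42-fold.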
